A study of Homo sapiens with 6 samples.

Results

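The genes described here are 53 genes of mitosis, given by symbol as kinases and cyclins of the G2 to M transition, kinetochore components, spindle proteins and cytokinesis genes, among 26364 gene symbols measured by RNAseq in A673/TR/shEF cells. The list sets no limit on expression or change, and all 53 symbols were found and passed the filter on low values. A673 was derived from a human Ewing sarcoma and depends on the fusion oncogene EWSR1::FLI1. Its derivative A673/TR/shEF holds a tetracycline repressor, so that doxycycline switches on an shRNA directed at the fusion transcript. All 6 samples were of this engineered genotype, grown under blasticidin and zeocin selection. The 3 EWSR1::FLI1 high samples were untreated, and the 3 EWSR1::FLI1 low samples received 1 µg/mL doxycycline for 72 h. The comparison therefore describes 1 engineered line, in which exposure to doxycycline and loss of the fusion cannot be told apart. The deposited design speaks of independent clones and the sample titles number experiments, so p-values measure only the spread between these samples.

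Mitosis is driven by cyclin-dependent kinase 1 with its B-type cyclins, together with the Polo-like and Aurora kinases. Kinetochores built on the centromeres bind spindle microtubules, and the spindle checkpoint holds back the anaphase-promoting ubiquitin ligase until all chromosomes are attached. Transcripts of most of these genes rise late in the cell cycle through the factors FOXM1, B-MYB and the MuvB complex, so their level in a bulk culture also follows the share of dividing cells.

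The value per gene and library was FPKM, fragments per kilobase of gene and per library size as deposited, and the order of replicates is 1, 2 and 3 throughout. Reads on genes numbered between 6980361 and 16658933 per library, and on the 53 genes a library held from 25 reads (CENPM, EWSR1::FLI1 low replicate 1) to 25182 reads (CENPF, EWSR1::FLI1 high replicate 1). FLI1, whose 3' part lies in the fusion, checked the labels: it had 11.3, 12.7 and 14.2 FPKM in EWSR1::FLI1 high and 2.91, 4.29 and 3.68 FPKM in EWSR1::FLI1 low (log2 fold change -1.57, SE 0.18, adjusted p = 0.000676, limma with Benjamini-Hochberg adjustment). Of 7 Ewing sarcoma genes, all detected in every library, 6 fell, FLI1 among them, and CD99 had an adjusted p of 0.067. EWSR1::FLI1 low replicate 1 stood apart in the sum of its FPKM over all genes, 255956 against 334614 to 366060 in the other 5 libraries. Whether this took part in the results below was not tested, and the counts over the 53 genes and over the comparison lists are also given without that library.

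All 53 mitotic genes had a lower mean in EWSR1::FLI1 low than in EWSR1::FLI1 high, compared with 54.8% of all 15504 genes tested. Their median log2 fold change, on the log2(FPKM + 1) scale, was -1.13 and their range -1.76 to -0.47, beside a median of -0.05 over all genes tested. At an adjusted p under 0.01, 4 of the 53 genes fell (7.55%), which are MYBL2, CDC25A, CENPH and CENPK, and none rose. Over all genes tested at the same limit, 3.37% fell and 4.51% rose. At an adjusted p under 0.05, 41 of the 53 genes were lower (77.4%), and over all genes tested 9.91% were lower and 9.87% higher. In 49 of the 53 genes every EWSR1::FLI1 low library lay below every EWSR1::FLI1 high library, and this held for 23.6% of all genes tested. The groups overlapped in CDC25B, CDC25C, BUB3 and KIF20A. With any single library left out, the groups were apart in 49 to 53 of the 53 genes. This count could not fall below 49, because leaving out a library cannot make separate groups overlap. In bulk RNA, fewer dividing cells and less of these RNAs per cell cannot be told apart.

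**Figure D1:**
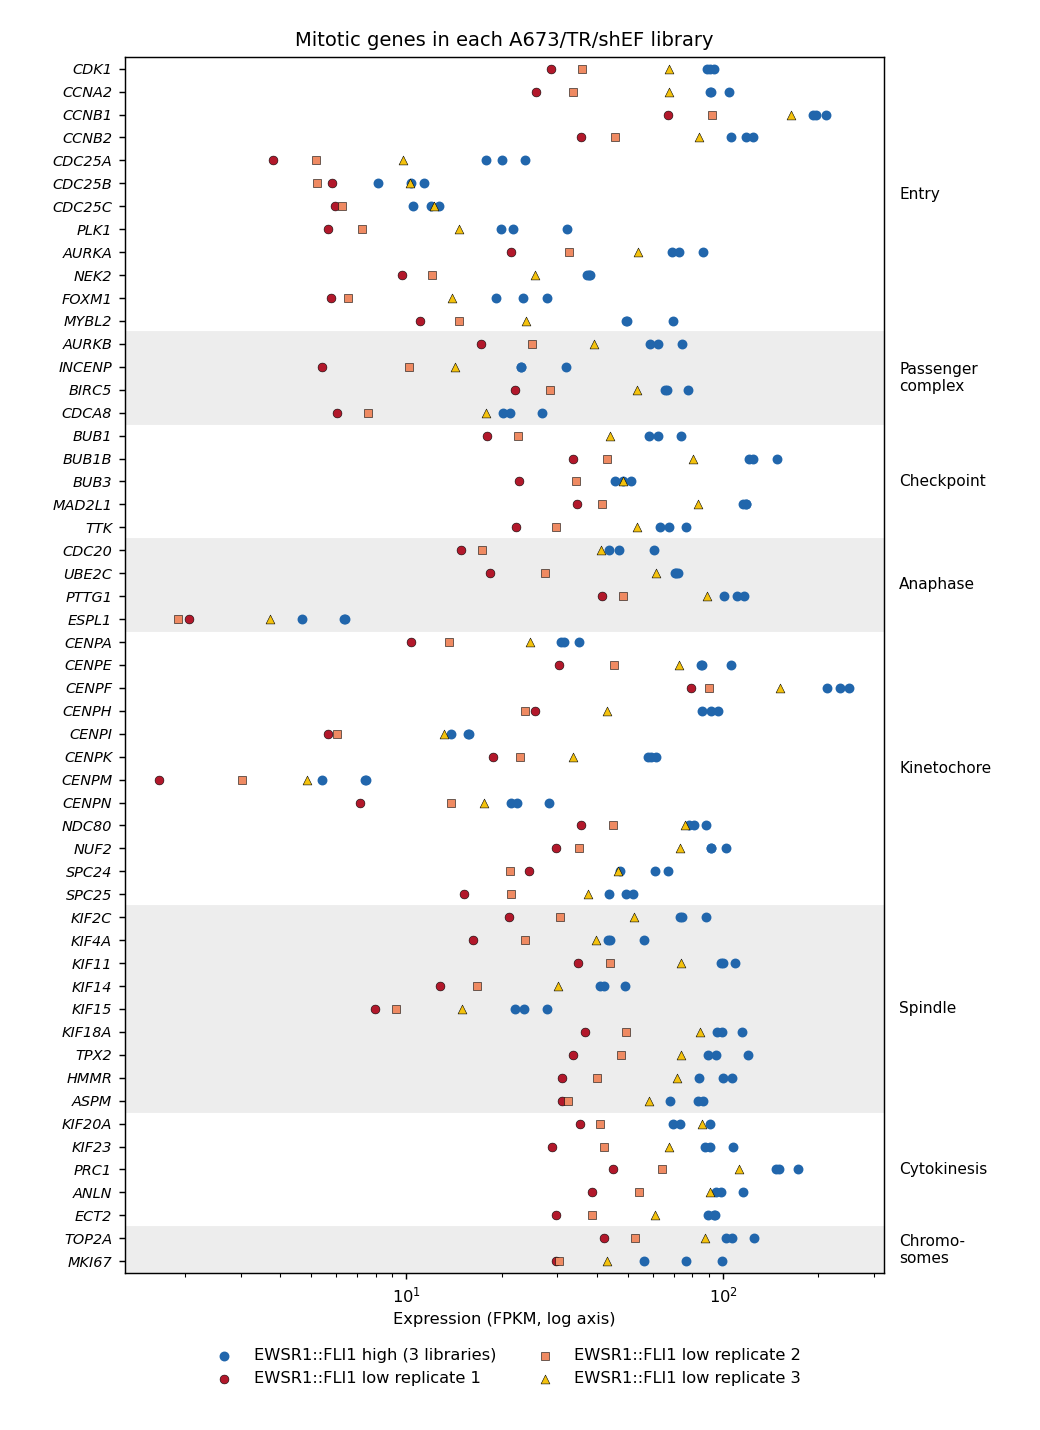
Expression of the 53 mitotic genes in each library, as FPKM on a log axis, grouped by role. Blue circles are the 3 EWSR1::FLI1 high libraries, and red circles, orange squares and yellow triangles are EWSR1::FLI1 low replicates 1, 2 and 3. In all 53 genes the yellow triangle is the rightmost of the 3 EWSR1::FLI1 low libraries.

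The 3 EWSR1::FLI1 low libraries were graded. The median gene of the 53 stood at 31.5% of its EWSR1::FLI1 high mean in replicate 1, at 40.1% in replicate 2 and at 72.7% in replicate 3. Over all genes tested the medians were 86.0%, 93.8% and 100.7%, in the same order. The order of replicates 1 and 2 depended on the scaling, as given below with the shares of reads. Replicate 3 was the highest of the EWSR1::FLI1 low libraries in 53 of 53 genes, against 48.4% of all genes tested, and replicate 1 was the lowest in 49 of 53, against 56.4% of all genes tested. The exceptions to the second count were CDC25B, ESPL1, CENPH and SPC24, in which replicate 2 was the lowest. The ratio of replicate 3 to the mean of replicates 1 and 2 ran from 1.43 in MKI67 to 2.68 in UBE2C, with a median of 2.02. FLI1 did not follow this order, since its lowest value was in replicate 1 and its highest in replicate 2. The 7 Ewing sarcoma genes stood at a median of 22.9% of their EWSR1::FLI1 high mean in replicate 1, 28.3% in replicate 2 and 29.0% in replicate 3, which was the highest in 1 of 7.

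How many genes passed the test changed with the libraries in the fit. Without EWSR1::FLI1 low replicate 3, 42 of the 53 genes were lower at an adjusted p under 0.01 and 53 at an adjusted p under 0.05, beside 4.35% and 13.1% of all genes in the same fit, and the median log2 fold change of the 53 was -1.42. Without EWSR1::FLI1 low replicate 1 the count at 0.01 was 8, beside 5.41% of all genes in that fit, and the median was -0.86. Without replicate 2 the count was 1 (CENPH), beside 1.82% of all genes. Leaving out EWSR1::FLI1 high replicate 1, 2 or 3 gave 0 genes at 0.01 each, beside 1.26%, 1.08% and 0.992% of all genes. At an unadjusted p under 0.05 in limma, 49, 48 and 45 of the 53 were lower in these fits. Over all genes, 2123 of 15580, 2184 of 15527 and 1933 of 15819 were lower at that unadjusted limit. The count at an adjusted p under 0.05 was 11, 12 and 4 of the 53 without EWSR1::FLI1 high replicates 1, 2 and 3, beside 4.27%, 4.16% and 3.44% of all genes in those fits. It was 39 and 13 without EWSR1::FLI1 low replicates 1 and 2, beside 12.9% and 5.74% of all genes. All 53 fold changes stayed below 0 in each of these fits. For genes whose groups did not overlap, no other sign was possible there. With limma-voom on the recovered reads, 27 of the 53 were lower at 0.01, beside 6.19% of all genes.

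**Figure D2:**
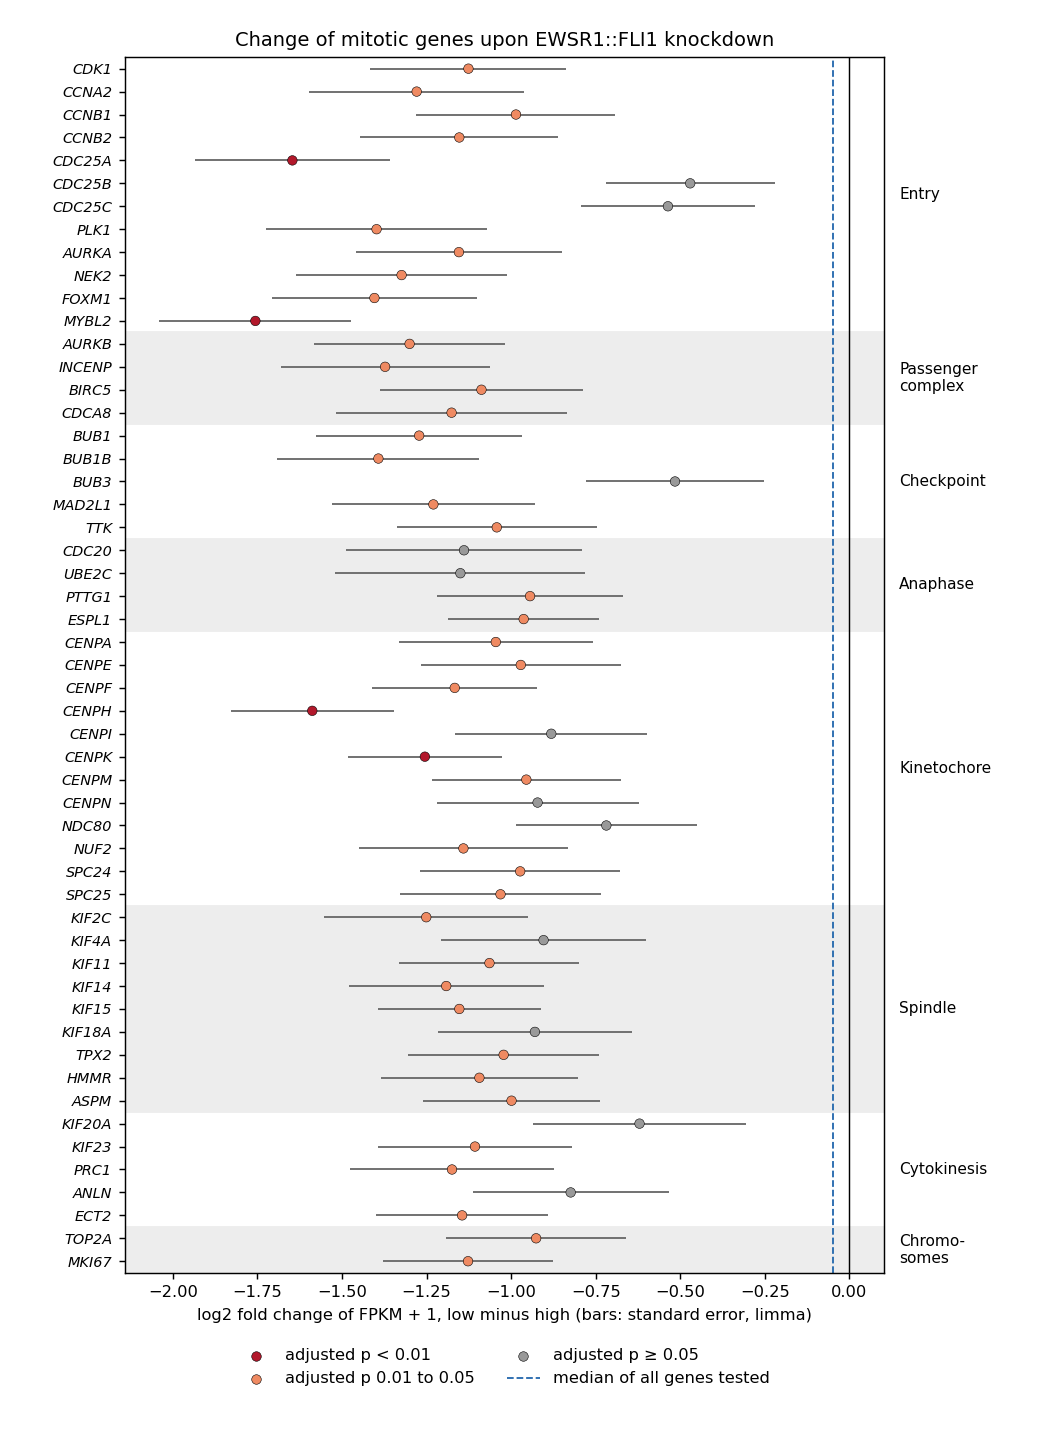
The log2 fold change of FPKM + 1, EWSR1::FLI1 low minus EWSR1::FLI1 high, for the 53 genes, with bars of 1 standard error from limma (3 libraries per group). All points lie between -1.76 and -0.47, left of the dashed median of all genes tested at -0.05, and 4 points are past an adjusted p of 0.01.

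The share of all reads on genes that fell on the 53 mitotic genes was 1.48%, 1.42% and 1.55% in EWSR1::FLI1 high replicates 1, 2 and 3. Among EWSR1::FLI1 low libraries it was 0.637% in replicate 1, 0.602% in replicate 2 and 1.009% in replicate 3. The group means were 1.48% ± 0.0685 and 0.749% ± 0.225 (SD, n = 3 each), and every EWSR1::FLI1 low library lay below every EWSR1::FLI1 high library. The 95% Wilson intervals, which cover counting error only, were far narrower than the gaps between libraries, from 1.407% to 1.424% in EWSR1::FLI1 high replicate 2 and from 1.004% to 1.013% in EWSR1::FLI1 low replicate 3. The share uses no size factors and is scaled by the reads on genes of each library itself. In this measure EWSR1::FLI1 low replicate 1 was above replicate 2, so the order of these 2 libraries depends on the scaling.

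**Figure D3:**
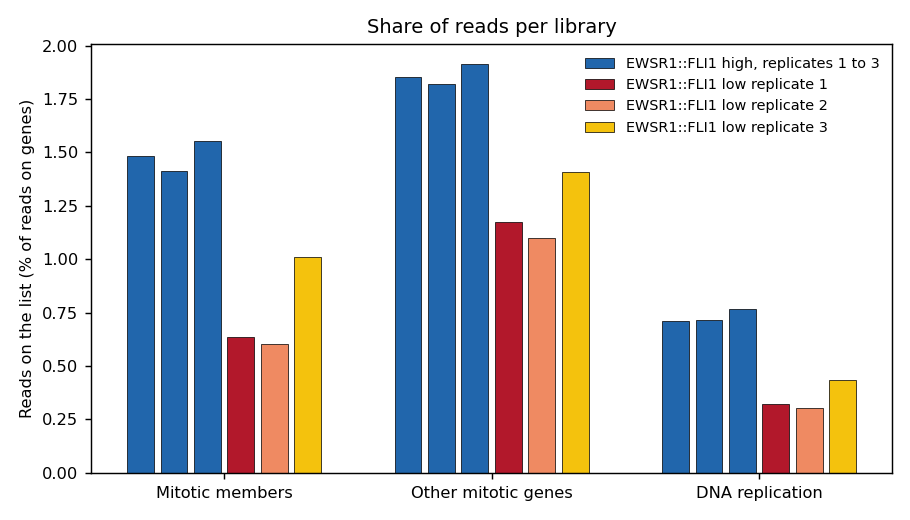
Share of the reads on genes (percent) taken by the 53 mitotic genes, by 127 other mitotic genes and by 49 DNA replication genes, 1 bar per library. Within each list the 3 blue EWSR1::FLI1 high bars are the tallest and, of the EWSR1::FLI1 low bars, the yellow bar of replicate 3 is the tallest.

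The promoters of many of these genes carry letters known as the cell cycle genes homology region (CHR) and the CCAAT box, the first bound by MuvB complexes and the second by NF-Y. RefSeq promoter windows of 250 bases before to 50 after the gene start (GRCh38.p14) were matched for 44 of the 53 genes. AURKA, FOXM1, BIRC5, BUB3, TTK, UBE2C, CENPH, CENPM and TPX2 had no entry. The CHR was searched as TTTGAA and, as a variant, TTCGAA, and the CCAAT box by the letters of its name. The E2F site was searched as TTTGGCGC and, as a variant, TTTCGCGC. Both strands were searched, and in genes with several windows a match in any window was counted. Of 131 matches in the windows of the 53 genes, a pair of different motifs overlapped in CDCA8 and in MKI67 only. The stretches of 120 bases before the gene start follow for genes described in the results, 5′ to 3′ on the strand of the gene, with the motif letters in capitals. CCNB2, PLK1, CDC20 and PRC1 show the CHR beside CCAAT boxes. CCNB1 shows CCAAT boxes and neither of the CHR forms that were searched. CDC25A shows the E2F letters with ATTGG, the reverse complement of CCAAT. The positions are CCNB2 at chr15:59105026-59105145 on the plus strand, PLK1 at chr16:23678769-23678888 on the plus strand, CDC20 at chr1:43358861-43358980 on the plus strand, PRC1 at chr15:90994536-90994655 on the minus strand, CCNB1 at chr5:69167030-69167149 on the plus strand and CDC25A at chr3:48188418-48188537 on the minus strand.
CCNB2: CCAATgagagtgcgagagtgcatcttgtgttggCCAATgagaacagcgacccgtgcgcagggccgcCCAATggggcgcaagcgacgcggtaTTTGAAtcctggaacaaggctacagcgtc
PLK1: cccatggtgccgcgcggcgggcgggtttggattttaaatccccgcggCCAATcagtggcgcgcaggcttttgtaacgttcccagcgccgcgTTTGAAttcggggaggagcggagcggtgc
CDC20: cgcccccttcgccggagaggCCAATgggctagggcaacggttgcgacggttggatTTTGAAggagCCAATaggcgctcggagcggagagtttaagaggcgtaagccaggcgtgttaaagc
PRC1: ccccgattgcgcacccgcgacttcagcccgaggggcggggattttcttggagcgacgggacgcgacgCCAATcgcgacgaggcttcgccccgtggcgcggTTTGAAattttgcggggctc
CCNB1: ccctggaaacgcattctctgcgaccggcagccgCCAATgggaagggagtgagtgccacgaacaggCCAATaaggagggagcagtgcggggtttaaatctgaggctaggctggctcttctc
CDC25A: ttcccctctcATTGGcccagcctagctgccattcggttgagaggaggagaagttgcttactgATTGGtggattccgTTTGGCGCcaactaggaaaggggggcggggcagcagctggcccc

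The CHR letters begin 29 bases before the gene start in both CCNB2 and PLK1, 20 before it in PRC1 and 65 before it in CDC20. Of the 44 genes with a window, 31 held the CHR letters (70.5%), 35 held the CCAAT box (79.5%) and 26 held both (59.1%). Among the 27305 genes of the promoter table these shares were 19.5%, 39.7% and 7.85%. The E2F letters were in 3 of the 44 (6.82%), which are CDK1, CDC25A and KIF15, and in 1.40% of the table. Of 112 other mitotic genes with a window, 44.6% held the CHR letters, 54.5% the CCAAT box, 24.1% both and 8.93% the E2F letters. Of 42 DNA replication genes with a window, 9.52% held the CHR letters, 57.1% the CCAAT box and 26.2% the E2F letters. The median log2 fold change was -1.13 in the 31 mitotic genes with the CHR letters and -1.25 in the 13 without them, and the ranges of -1.40 to -0.47 and -1.76 to -0.62 overlapped. A match describes letters in a window, not binding. No other forms of the CHR were searched, so a gene without a match was not shown to lack one.

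**Figure D4:**
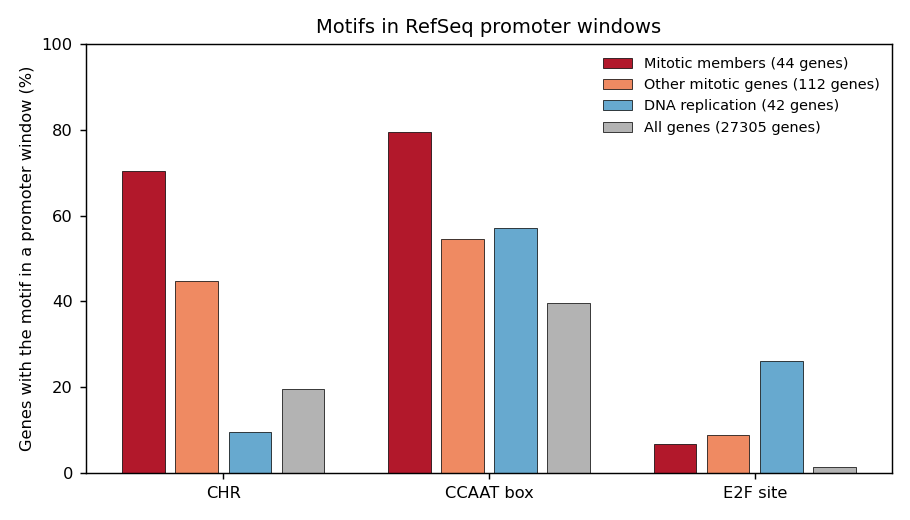
Percent of genes with the CHR, the CCAAT box or the E2F letters in a RefSeq promoter window, for the mitotic genes (44 with a window), other mitotic genes (112), DNA replication genes (42) and all 27305 genes of the table. The CHR bar is tallest for the mitotic genes (70.5%) and lowest for DNA replication (9.52%), and the E2F bar is tallest for DNA replication (26.2%).

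The cyclin-dependent kinase CDK1, the catalytic core of mitotic entry (GRCh37 chr10:62538089-62554610, plus strand, as for all gene positions that follow), had 88.9, 90.8 and 93.4 FPKM in EWSR1::FLI1 high and 28.7, 35.9 and 67.3 FPKM in EWSR1::FLI1 low. Its groups were apart (log2 fold change -1.13, SE 0.29, adjusted p = 0.0269), with the EWSR1::FLI1 high libraries close to each other and the EWSR1::FLI1 low libraries widely spread. CCNB1, the cyclin B1 partner of CDK1 (chr5:68462962-68474072, plus strand), was the highest of the entry genes, with 197, 192 and 212 FPKM in EWSR1::FLI1 high and 66.8, 92.3 and 164 FPKM in EWSR1::FLI1 low (log2 fold change -0.99, SE 0.29, adjusted p = 0.0456). The value of EWSR1::FLI1 low replicate 3 was nearer to the EWSR1::FLI1 high libraries than to the other two. Cyclins A2 and B2 (CCNA2, CCNB2) had log2 fold changes of -1.28 and -1.15, with adjusted p of 0.0236 and 0.0253.

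Polo-like kinase PLK1, which acts in centrosome maturation and mitotic entry (chr16:23688977-23701688, plus strand), had 21.7, 19.9 and 32.1 FPKM in EWSR1::FLI1 high and 5.66, 7.23 and 14.7 FPKM in EWSR1::FLI1 low. The highest EWSR1::FLI1 low library, replicate 3, lay below the lowest EWSR1::FLI1 high library (log2 fold change -1.40, SE 0.33, adjusted p = 0.0186). The spindle pole kinase AURKA (chr20:54944445-54967393, minus strand) measured 72.8, 69.1 and 86.6 FPKM in EWSR1::FLI1 high and 21.4, 32.6 and 53.8 FPKM in EWSR1::FLI1 low (log2 fold change -1.15, SE 0.30, adjusted p = 0.0297). NEK2, a centrosome kinase, had a log2 fold change of -1.32 (adjusted p = 0.0193). Without EWSR1::FLI1 low replicate 3, the adjusted p was 0.00531 for PLK1, 0.00679 for AURKA and 0.00531 for CCNB1.

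The transcription factors of the G2 and M program had larger fold changes than most of the 53. MYBL2, which encodes B-MYB (chr20:42295659-42345135, plus strand), had 49.9, 49.2 and 69.6 FPKM in EWSR1::FLI1 high and 11.01, 14.6 and 23.9 FPKM in EWSR1::FLI1 low, and it fell by the largest amount of the 53 (log2 fold change -1.76, SE 0.28, adjusted p = 0.00366). FOXM1 (chr12:2966846-2986340, minus strand) had 23.3, 19.2 and 27.9 FPKM in EWSR1::FLI1 high and 5.79, 6.55 and 13.9 FPKM in EWSR1::FLI1 low, and its groups did not overlap (log2 fold change -1.40, SE 0.30, adjusted p = 0.0135). It did not pass 0.01.

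The 3 CDC25 phosphatases activate cyclin-dependent kinases by removing inhibitory phosphates. CDC25A, which also acts at entry to S phase (chr3:48198636-48229907, minus strand), fell from 17.8, 20.1 and 23.8 FPKM in EWSR1::FLI1 high to 3.79, 5.20 and 9.78 FPKM in EWSR1::FLI1 low (log2 fold change -1.65, SE 0.29, adjusted p = 0.00538). CDC25B had 10.3, 8.16 and 11.3 FPKM in EWSR1::FLI1 high and 5.85, 5.23 and 10.3 FPKM in EWSR1::FLI1 low (log2 fold change -0.47, SE 0.25, adjusted p = 0.22). CDC25C had 12.7, 10.5 and 11.96 FPKM in EWSR1::FLI1 high and 5.95, 6.26 and 12.3 FPKM in EWSR1::FLI1 low (log2 fold change -0.54, SE 0.26, adjusted p = 0.179). In CDC25B and CDC25C the groups overlapped, with replicate 3 within the EWSR1::FLI1 high range, and CDC25B had the smallest fold change of the 53. Of the 3, CDC25A alone had E2F letters in its promoter window. Differences between the 3 phosphatases were not tested. In all, 2 of the 12 entry genes fell at 0.01 and 10 were lower at 0.05, and with single libraries left out the second count ran from 2 (without EWSR1::FLI1 high replicate 3) to 12 (without EWSR1::FLI1 low replicate 3). Their fold changes had a log2 median of -1.22.

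The chromosomal passenger complex corrects faulty attachments and helps to divide the cell. All 4 of its genes were lower at an adjusted p under 0.05, and their median log2 change was -1.24. Without EWSR1::FLI1 high replicate 1, 2 or 3 the count was 2, 1 and 0, and without EWSR1::FLI1 low replicate 2 it was 2. INCENP, its scaffold, had 22.98, 23.1 and 31.9 FPKM in EWSR1::FLI1 high and 5.42, 10.2 and 14.3 FPKM in EWSR1::FLI1 low (log2 fold change -1.37, SE 0.31, adjusted p = 0.0162). BIRC5, which encodes survivin, had 66.7, 65.5 and 77.6 FPKM in EWSR1::FLI1 high and 21.99, 28.4 and 53.4 FPKM in EWSR1::FLI1 low (log2 fold change -1.09, SE 0.30, adjusted p = 0.0349). In both, every EWSR1::FLI1 low library was below every EWSR1::FLI1 high library, and so it was for the kinase AURKB (-1.30, adjusted p = 0.0138) and for CDCA8, borealin (-1.18, adjusted p = 0.0409).

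Of the 5 spindle checkpoint genes, 4 were lower at 0.05, and the median log2 change of all 5 was -1.23. The count was 1, 1 and 0 without EWSR1::FLI1 high replicates 1, 2 and 3 and 1 without EWSR1::FLI1 low replicate 2. BUB1, a checkpoint kinase of the kinetochore (chr2:111395105-111435640, minus strand), had 62.4, 58.5 and 73.7 FPKM in EWSR1::FLI1 high and 17.97, 22.5 and 43.9 FPKM in EWSR1::FLI1 low (log2 fold change -1.27, SE 0.31, adjusted p = 0.0206). BUB1B, which encodes BUBR1 (chr15:40453224-40513324, plus strand), had 124, 120.4 and 148 FPKM in EWSR1::FLI1 high and 33.7, 43.1 and 80.6 FPKM in EWSR1::FLI1 low (log2 fold change -1.39, SE 0.30, adjusted p = 0.0132). The exception was BUB3, the partner that carries both to the kinetochore, with 45.7, 48.3 and 51.1 FPKM in EWSR1::FLI1 high and 22.6, 34.2 and 48.3 FPKM in EWSR1::FLI1 low (log2 fold change -0.52, SE 0.26, adjusted p = 0.204). Its value in replicate 3 lay within the EWSR1::FLI1 high range. MAD2L1 and the kinase TTK had log2 fold changes of -1.23 and -1.04, with adjusted p of 0.0218 and 0.0382.

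Anaphase starts when the ubiquitin ligase with its activator CDC20 degrades securin and frees separase. CDC20 (chr1:43824652-43828874, plus strand), whose promoter is shown above, had 46.8, 43.7 and 60.6 FPKM in EWSR1::FLI1 high and 14.9, 17.3 and 41.2 FPKM in EWSR1::FLI1 low (log2 fold change -1.14, SE 0.35, adjusted p = 0.0502). The ubiquitin-conjugating enzyme UBE2C had 70.7, 70.95 and 71.8 FPKM in EWSR1::FLI1 high and 18.4, 27.4 and 61.3 FPKM in EWSR1::FLI1 low (log2 fold change -1.15, SE 0.37, adjusted p = 0.059). Neither passed 0.05, although their groups did not overlap, and both had the largest standard errors of the 53, with replicate 3 at 2.56 and 2.68 times the mean of replicates 1 and 2. Without replicate 3 their adjusted p was 0.004 and 0.00384. Securin, PTTG1, had 110.4, 101 and 117 FPKM in EWSR1::FLI1 high and 41.4, 48.2 and 88.6 FPKM in EWSR1::FLI1 low (log2 fold change -0.94, SE 0.27, adjusted p = 0.0415), and separase, ESPL1, was the lowest expressed of the 53 in EWSR1::FLI1 high, at 6.40, 4.70 and 6.33 FPKM, with 2.05, 1.90 and 3.72 FPKM in EWSR1::FLI1 low (log2 fold change -0.96, SE 0.22, adjusted p = 0.0185).

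Kinetochore genes gave 2 of the 4 calls at 0.01. CENPH, a subunit of the inner kinetochore (chr5:68485401-68506184, plus strand), fell from 91.5, 85.6 and 96.6 FPKM in EWSR1::FLI1 high to 25.4, 23.7 and 43.1 FPKM in EWSR1::FLI1 low (log2 fold change -1.59, SE 0.24, adjusted p = 0.00271). CENPK, its neighbour in the same protein complex (chr5:64813593-64858995, minus strand), fell from 59.3, 57.9 and 61.4 FPKM in EWSR1::FLI1 high to 18.8, 22.8 and 33.6 FPKM in EWSR1::FLI1 low (log2 fold change -1.26, SE 0.23, adjusted p = 0.00634). The other inner subunits among the 53, CENPI, CENPM and CENPN, had log2 fold changes of -0.88, -0.96 and -0.92 and adjusted p of 0.059, 0.0419 and 0.0604. CENPA, the centromeric histone H3 variant (chr2:26987157-27023935, plus strand), had 31.5, 30.7 and 35.1 FPKM in EWSR1::FLI1 high and 10.3, 13.7 and 24.6 FPKM in EWSR1::FLI1 low (log2 fold change -1.05, SE 0.29, adjusted p = 0.034).

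CENPF, a large protein of the outer kinetochore (chr1:214776528-214837917, plus strand), had the highest FPKM of the 53 genes in EWSR1::FLI1 high, with 233, 213 and 251 FPKM there and 79.3, 90.4 and 151 FPKM in EWSR1::FLI1 low (log2 fold change -1.17, SE 0.24, adjusted p = 0.0119). Within the 4-subunit NDC80 complex, which holds the microtubule ends, NDC80 itself (chr18:2571556-2616634, plus strand) had 78.1, 81.2 and 88.1 FPKM in EWSR1::FLI1 high and 35.7, 45.02 and 75.99 FPKM in EWSR1::FLI1 low (log2 fold change -0.72, SE 0.27, adjusted p = 0.0926). It had the smallest fold change of the kinetochore genes, with replicate 3 just below the lowest EWSR1::FLI1 high library. The partners NUF2, SPC24 and SPC25 had log2 fold changes of -1.14, -0.97 and -1.03, each with an adjusted p between 0.0325 and 0.0481. In all, the groups were apart in 12 of 12 kinetochore genes, against 23.6% of all genes tested. At 0.05, 9 of the 12 were lower, and the median log2 fold change was -1.002. The count was 3, 3 and 2 without EWSR1::FLI1 high replicates 1, 2 and 3 and 3 without EWSR1::FLI1 low replicate 2.

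In 9 of 9 spindle motors and spindle proteins the groups were apart, against 23.6% of all genes tested. Of the 9, 7 were lower at 0.05, with a median log2 change of -1.06. Without EWSR1::FLI1 high replicate 1, 2 or 3 the count was 1, 1 and 0, and without EWSR1::FLI1 low replicate 2 it was 1. KIF11, the motor that separates the spindle poles (chr10:94333862-94415152, plus strand), had 99.7, 98.2 and 109 FPKM in EWSR1::FLI1 high and 34.7, 43.99 and 73.9 FPKM in EWSR1::FLI1 low (log2 fold change -1.06, SE 0.27, adjusted p = 0.0241). KIF2C, which depolymerizes microtubules at centromeres, had 73.2, 74.4 and 88.5 FPKM in EWSR1::FLI1 high and 21.1, 30.5 and 52.4 FPKM in EWSR1::FLI1 low (log2 fold change -1.25, SE 0.30, adjusted p = 0.021). It had the largest change of this group. The chromosome-bound motor KIF4A had 43.9, 43.2 and 56.1 FPKM in EWSR1::FLI1 high and 16.2, 23.7 and 39.7 FPKM in EWSR1::FLI1 low (log2 fold change -0.90, SE 0.30, adjusted p = 0.0668), and KIF18A, which damps chromosome movements, had a log2 fold change of -0.93 (adjusted p = 0.051). KIF14, KIF15, TPX2, HMMR and ASPM ranged from -1.19 to -0.999.

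Cytokinesis genes act on the central spindle and the cleavage furrow after the chromosomes have parted. PRC1, which bundles the microtubules of the central spindle, had 147, 150.3 and 172 FPKM in EWSR1::FLI1 high and 44.9, 63.98 and 112 FPKM in EWSR1::FLI1 low (log2 fold change -1.17, SE 0.30, adjusted p = 0.0262). The kinesin KIF20A had 69.7, 72.9 and 90.7 FPKM in EWSR1::FLI1 high and 35.3, 40.9 and 85.7 FPKM in EWSR1::FLI1 low (log2 fold change -0.62, SE 0.32, adjusted p = 0.202). Its replicate 3 value was above 2 of the 3 EWSR1::FLI1 high libraries. The furrow scaffold ANLN did not pass 0.05 either (-0.82, adjusted p = 0.0786), while KIF23 (-1.11, adjusted p = 0.0281) and ECT2, which acts at the cleavage furrow, (-1.15, adjusted p = 0.0154) were lower at 0.05. In all, 3 of 5 genes were lower at 0.05, with a median log2 change of -1.11. None was without any single EWSR1::FLI1 high library, 1 was without EWSR1::FLI1 low replicate 2, and all 5 were without replicate 3.

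The last pair serve chromosome structure. TOP2A, the topoisomerase that untangles sister chromatids (chr17:38544777-38574148, minus strand), had 107, 102 and 125 FPKM in EWSR1::FLI1 high and 41.9, 52.8 and 87.6 FPKM in EWSR1::FLI1 low (log2 fold change -0.93, SE 0.27, adjusted p = 0.0398). MKI67, which encodes the proliferation antigen Ki-67 (chr10:129894923-129924687, minus strand), had 76.5, 56.1 and 99.1 FPKM in EWSR1::FLI1 high and 29.8, 30.4 and 43.04 FPKM in EWSR1::FLI1 low (log2 fold change -1.13, SE 0.25, adjusted p = 0.0155). The EWSR1::FLI1 high libraries of MKI67 were spread more widely than its EWSR1::FLI1 low libraries, and replicate 3 exceeded the mean of replicates 1 and 2 by a factor of 1.43, the smallest of the 53.

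The 12 genes with an adjusted p of 0.05 or more were CDC25B, CDC25C, BUB3, CDC20, UBE2C, CENPI, CENPN, NDC80, KIF4A, KIF18A, KIF20A and ANLN. Their log2 fold changes lay between -1.15 and -0.47, and without EWSR1::FLI1 low replicate 3 all 12 had an adjusted p between 0.00384 and 0.0441. Exons of some of the 53 genes overlap those of another tested gene in GENCODE v44 (GRCh37). On the opposite strand these include CCNA2 with EXOSC9, CDC25C with FAM53C, CENPN with CMC2, FOXM1 with ITFG2, HMMR with HMMR-AS1, KIF20A with BRD8 and CDC23, KIF4A with PDZD11 and PRC1 with PRC1-AS1, while CENPA overlaps SLC35F6 on the same strand. The strand setting of the counting was not given in the sources used here, so how reads in these overlaps were assigned is not known.

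Other genes of mitosis, 127 in a list that holds none of the 53, were counted for comparison. At 0.01, 11 of 127 fell (8.66%), and at 0.05, 55 were lower (43.3%), beside 3.37% and 9.91% of all genes tested. Of the 127, 117 had a fold change below 0, and the log2 median was -0.69. The median gene stood at 48.0% of its EWSR1::FLI1 high mean in EWSR1::FLI1 low replicate 1, at 59.1% in replicate 2 and at 80.9% in replicate 3. Replicate 3 was the highest of the 3 in 120 of 127 genes, against 48.4% of all genes tested. By complex, the 8 condensin genes had a median log2 fold change of -1.09 (5 lower at 0.05), 21 other spindle, kinesin and cytokinesis genes -0.90 (12), 15 augmin and gamma-tubulin genes -0.78 (7), 29 other kinetochore and checkpoint genes -0.70 (13), and 14 cohesin genes -0.60 (7). The 17 subunits and inhibitors of the anaphase-promoting ubiquitin ligase had -0.26 (4), 12 other entry regulators -0.52 (4) and 11 DREAM and MuvB genes -0.52 (3). The median of the ubiquitin ligase genes in EWSR1::FLI1 low replicate 3 was 105% of the EWSR1::FLI1 high mean. With single libraries left out the count at 0.05 ran from 2 (without EWSR1::FLI1 high replicate 3) to 8 (without EWSR1::FLI1 low replicate 3) in the condensin genes, from 1 to 18 in the other spindle genes, from 1 to 12 in augmin and gamma-tubulin, from 3 to 20 in the other kinetochore genes, from 1 to 8 in cohesin, from 0 to 5 in the ubiquitin ligase, from 0 to 6 in the other entry regulators and from 1 to 6 in DREAM and MuvB. Differences between these groups were not tested.

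The kinetochore gene SKA3 had the lowest fold change of the 127, with 44.4, 43.1 and 50.7 FPKM in EWSR1::FLI1 high and 9.55, 11.03 and 20.7 FPKM in EWSR1::FLI1 low (log2 fold change -1.74, SE 0.27, adjusted p = 0.00311). OIP5, which helps to load CENPA, came next, with 19.3, 19.9 and 22.9 FPKM in EWSR1::FLI1 high and 4.91, 4.83 and 11.2 FPKM in EWSR1::FLI1 low (log2 fold change -1.53, SE 0.29, adjusted p = 0.00724). Neither gene overlapped between the groups. At the other end stood LIN37 of the MuvB complex, with 2.49, 3.49 and 3.48 FPKM in EWSR1::FLI1 high and 3.23, 4.66 and 6.92 FPKM in EWSR1::FLI1 low (log2 fold change 0.48, SE 0.24, adjusted p = 0.199), and the CDK-activating kinase CDK7, with 28.1, 28.7 and 32.6 and 23.9, 43.1 and 46.5 FPKM (log2 fold change 0.28, SE 0.26, adjusted p = 0.485). In LIN37 and CDK7 the groups overlapped. In limma 0 of the 127 were higher at an adjusted p under 0.05 and 0 at an unadjusted p under 0.05. Over all 15504 genes tested these counts were 1530 and 2415. For the 127, limma-voom gave 0 and 1, beside 2163 and 3073 of all genes. Without EWSR1::FLI1 low replicate 3, 43 of the 127 were lower at 0.01, and the count was 17 without replicate 1, 2 without replicate 2 and 1 without any single EWSR1::FLI1 high library. The count at 0.05 was 21, 16 and 9 without EWSR1::FLI1 high replicates 1, 2 and 3, and 57, 22 and 83 without EWSR1::FLI1 low replicates 1, 2 and 3. Without EWSR1::FLI1 low replicate 1, 2 of the 127 were higher at 0.05, beside 2601 of all 14907 genes in that fit.

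The 49 DNA replication genes, which act in S phase, were set beside the mitotic genes. All 49 had a fold change below 0. At 0.01, 17 fell (34.7%), and at 0.05, 39 were lower (79.6%), beside 3.37% and 9.91% of all genes tested. For the 53 mitotic genes these shares were 7.55% and 77.4%. The log2 median of the 49 was -1.10. The groups were apart in 46, against 23.6% of all genes tested. Without EWSR1::FLI1 low replicate 3 the count at 0.01 was 32, without replicate 1 it was 20 and without replicate 2 it was 3. Without EWSR1::FLI1 high replicate 1, 2 or 3 it was 2, 1 and 1. The count at 0.05 was 23, 20 and 16 without EWSR1::FLI1 high replicates 1, 2 and 3, and 40, 24 and 46 without EWSR1::FLI1 low replicates 1, 2 and 3. PRIM1, the catalytic primase subunit, had the lowest fold change, with 60.9, 63.6 and 63.1 FPKM in EWSR1::FLI1 high and 15.8, 14.9 and 24.7 FPKM in EWSR1::FLI1 low (log2 fold change -1.74, SE 0.22, adjusted p = 0.00102). RRM2 of ribonucleotide reductase had 107, 110.3 and 125 FPKM in EWSR1::FLI1 high and 21.9, 32.3 and 59.7 FPKM in EWSR1::FLI1 low (log2 fold change -1.68, SE 0.32, adjusted p = 0.008). In both, replicate 3 was the highest of the EWSR1::FLI1 low libraries and the groups were apart. The highest fold changes, still below 0, were those of ORC4 in the origin recognition complex (log2 fold change -0.38, SE 0.18, adjusted p = 0.165) and of RPA1, which binds single-stranded DNA (log2 fold change -0.42, SE 0.25, adjusted p = 0.281). The median gene stood at 34.4% of its EWSR1::FLI1 high mean in EWSR1::FLI1 low replicate 1, at 41.9% in replicate 2 and at 65.5% in replicate 3. Replicate 3 was the highest of the EWSR1::FLI1 low libraries in 49 of 49, against 48.4% of all genes tested. Whether mitotic and replication genes differ in this was not tested.

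**Figure D5:**
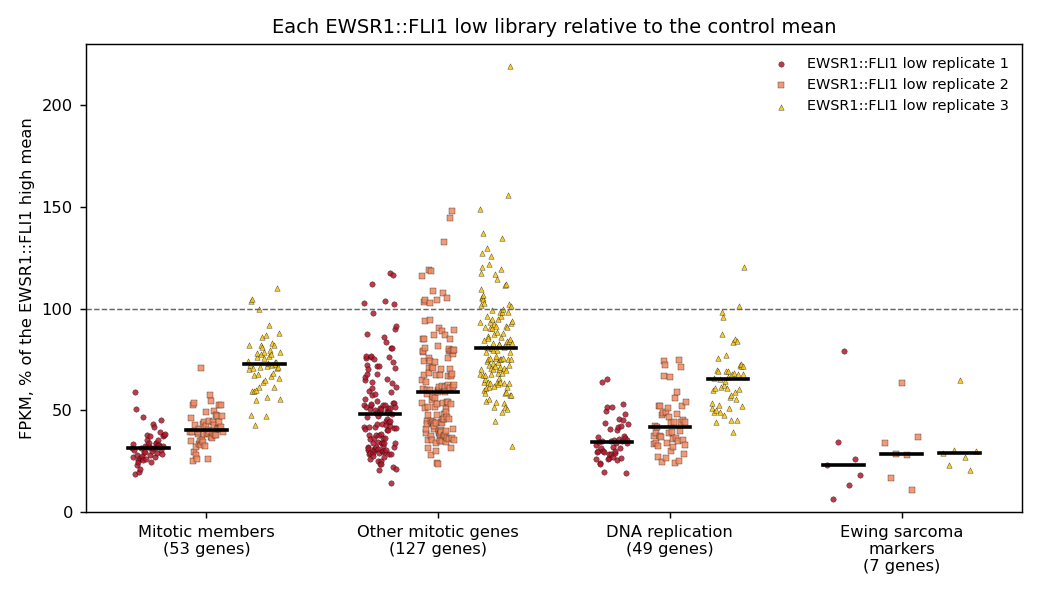
FPKM in each EWSR1::FLI1 low library as a percent of the mean of the 3 EWSR1::FLI1 high libraries, 1 point per gene, with black bars at the medians, for 4 gene lists. The medians of replicates 1, 2 and 3 are 31.5%, 40.1% and 72.7% in the 53 mitotic genes and 22.9%, 28.3% and 29.0% in the 7 Ewing sarcoma genes.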

How the data were processed

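RNAseq libraries (ScriptSeq v2 after rRNA depletion, paired-end) of A673/TR/shEF cells, 3 per group, were mapped by the authors to GRCh37. The submitters' processing notes name STAR 2.5.0b, Cufflinks 2.2.1, bedtools 2.17.0 and DESeq2 1.6.3. The authors deposited FPKM per gene symbol and library, without pooling replicates. In a table of their comparison the authors deposited the mean normalized signal per gene over the 6 libraries, used here only to recover reads. Its fold changes, standard errors, Wald scores and p-values were not used. Multiplied by the ratio of this mean to the mean FPKM, 100% of values were whole multiples of 1 read (within 0.1 reads), so the deposited FPKM already include size factors, of 0.829 to 1.67. Replicates were distinct libraries by the chi-square of their reads, per degree of freedom. It was 4.25 to 6.27 between EWSR1::FLI1 high libraries and 20.2 to 31.5 between EWSR1::FLI1 low libraries. In the limma fit both groups shared the same estimate of spread for each gene.

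Of 26364 symbols, the 15504 whose FPKM averaged 0.5 or more over the 6 libraries were compared with limma 3.58.1 in R 4.3.3 (lmFit, eBayes with trend) on log2(FPKM + 1), which understates changes of low genes, with Benjamini-Hochberg adjustment over all of them. The limit was an adjusted p under 0.01, with 0.05 as an alternative. The fit was tested on simulated data first. The 53 genes and all lists were chosen with earlier results of these data known, so no set test was made. The genes to name were PLK1, CCNB1 and AURKA, 12 genes taken for their roles, the extremes of each role, members at an adjusted p of 0.05 or more, and the 2 lowest and 2 highest of each comparison list. CDC25A, CENPK and other members given by name were added after their values were seen. Alternatives were the pseudocount, filter, scaling, variance trend, replicate block, quality weights, limma-voom on recovered reads and leaving out each library, and equal FPKM totals, chosen after the data were seen. Gene positions came from GENCODE v44, lifted to GRCh37, and promoter windows from RefSeq. Summaries and figures were made in Python 3.11.15 (pandas 2.3.3, scipy 1.17.1, matplotlib 3.10.9).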

Additional observations from a re-analysis of the deposited data

How the results depend on the processing

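The fold changes of all 53 mitotic genes stayed below 0 in each of the 17 alternatives, none was called higher, and FLI1 stayed past the limit in all of them. The filter, the variance trend, the replicate block and the limit of 0.05 leave the fold changes themselves unchanged. Leaving out a library cannot reverse the sign of a gene whose groups were apart. The median log2 fold change of the 53 moved by less than the spread of the EWSR1::FLI1 low libraries, with leave-one-out values from -1.42 to -0.86. The counts at an adjusted p under 0.01 depended on the processing, and they are given in the order of mitotic genes, other mitotic genes, replication genes, all genes lower and all genes higher, where each moved by over 1.5 times. As reported they were 4, 11, 17, 522 and 700. Without the filter on low values they were 2, 3, 8, 297 and 456. With sample quality weights they were 49, 75, 43, 2257 and 2488, where EWSR1::FLI1 low replicates 1, 2 and 3 had weights of 0.172, 2.79 and 0.463. With limma-voom they were 27, 40, 33, 959 and 1139, and with equal FPKM totals, chosen after seeing the data, 23, 38, 35, 819 and 1224. For the first 4 counts, median-ratio scaling gave 12, 33, 29 and 813 and quantile normalization 18, 42, 34 and 1000. At a limit of 0.05 they were 41, 55, 39, 1537 and 1530. Leaving out 1 library gave from 0 to 42 mitotic, from 1 to 43 other mitotic and from 1 to 32 replication genes, and from 157 to 807 genes lower and from 308 to 1527 higher. The cause of these shifts was not tested. Equal FPKM totals moved the median of all genes by 0.10 on the log2 scale, to 0.05, beside a median of -0.99 for the 53 genes. With a replicate block the first 4 counts were 26, 32, 34 and 786. At 0.05 in that fit, 49 of the 53 mitotic genes were lower, beside 2012 of all 15504 genes tested. Deviations of samples with the same number correlated at 0.271, 0.0889 and 0.124 for replicates 1, 2 and 3. This was the best match for EWSR1::FLI1 low replicates 1 and 3, while replicate 2 correlated better with EWSR1::FLI1 high replicate 3 (0.189). Whether the numbers pair the samples was thus not settled, and the main fit used no block. With 3 libraries per group of 1 cell line, the standard errors of the 53 log2 fold changes were 0.22 to 0.37.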
